A study of Mus musculus with 24 samples.

Results

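Copper (Cu) and zinc (Zn) were set directly against each other in proliferating C2C12 myoblasts, an established mouse line of muscle precursor cells, by RNA-seq of cells grown with either metal. The comparison took every Cu library and every Zn library of the series with usable depth, as named in the sample titles, which came to 8 Cu and 7 Zn libraries of 24 libraries in all. The cells were of 4 lines: a control line with a scrambled shRNA (scr) and 3 knockdown (KD) populations, in which a stably integrated lentiviral shRNA depleted *Baf180*, *Baf250a* or *Brd9*, subunits of the SWI/SNF chromatin remodelling complexes. Each line was a puromycin-selected population, not a clone. Cu was given as CuSO4 at 100 µM and Zn as ZnSO4 at 50 µM, each for 48 h, so that metal and dose cannot be told apart either. Each line had 2 Cu and 2 Zn libraries, from cultures described as independent, except that 1 Zn library of *Baf250a* KD cells (replicate 2) held only 495778 counts and was left out. The 8 libraries of untreated cells (NT), 2 per line, were set beside the metal-treated ones where a direction against untreated cells was asked for.

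Zn that enters the cytosol is sensed by MTF1, a transcription factor that binds metal response elements and drives the metallothioneins, small cysteine-rich proteins that chelate Zn and Cu, and *Slc30a1*, which encodes the plasma membrane Zn exporter. The Zn importer gene *Slc39a10* is known to be held down by MTF1 when Zn is high. Cu enters as Cu(I) through CTR1 (*Slc31a1*), is passed on by chaperones, and leaves through ATP7A, and in excess this redox-active metal oxidises thiols, which is a known way to free NRF2, the activator of antioxidant and glutathione genes, from KEAP1. The direct comparison asked which transcripts distinguish cells grown with Cu from cells grown with Zn, as opposed to transcripts that either metal moves.

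The 15 libraries held 12719173 to 75179394 counts. Levels are given as CPM, the counts of a gene scaled to library size after TMM scaling (for cell type markers, to the library total without TMM). Differences are given as log2 fold changes (log2FC) of Cu over Zn with the cell line as a block, so a positive value means higher in Cu. A gene was called at an adjusted p below 0.05 in edgeR's quasi-likelihood test with Benjamini-Hochberg adjustment over the 15668 genes tested, and every adjusted p below is from that tool. The shRNA targets were low in their own lines, with *Pbrm1*, which encodes BAF180, at 42.1 to 63.0 CPM in the 4 metal-treated *Baf180* KD libraries and at 126 CPM or more in the others. All 7 myoblast markers were detected, with *Myod1* at 67.9 to 131 CPM and *Des* at 795 to 2096 CPM per library, although *Pax7* stayed at 0.738 to 5.45 CPM. Among markers of other cell types, *Emcn* had no count in any of the 15 libraries, which allows up to 0.236 CPM in the smallest of them for counting error alone, and *Ptprc*, *Adgre1*, *Adipoq*, *Snap25*, *Thy1* and *Tcf21* stayed below 0.1 CPM. Other markers on those lists were expressed, with *Tubb3* at 8.48 to 96.0 CPM, *Pparg* at 13.7 to 24.2 CPM, *Cebpa* at 1.49 to 30.8 CPM, *Pdgfra* at 3.80 to 57.6 CPM, *Twist2* at 12.9 to 33.3 CPM and *Cd68* at 2.96 to 5.82 CPM. The summed markers ranged from 758 to 2281 CPM in Cu and from 837 to 3370 CPM in Zn for fibroblasts, nearly all of it *Col3a1*, and none of the markers of the 5 other cell types was called between the metals. The fibroblast markers *Col3a1* (log2FC of Cu over Zn -0.23, adjusted p = 0.106) and *Pdgfra* (-0.18, 0.110) had an unadjusted p below 0.05 in edgeR, and the myoblast marker *Chrna1* was called higher in Cu (0.23, 0.0380), and the part of these markers in other results was not tested.

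Across all genes, 1125 of 15668 were called between Cu and Zn, 7.18%, of which 593 (3.78%) were higher in Cu and 532 (3.4%) were higher in Zn. Most differences were small: the median absolute log2FC of the called genes was 0.29, and 32 exceeded 1. The median log2FC of all genes tested was -0.022. Libraries differed in how their counts depended on GC content, as given below, and with a per-library correction for GC content and gene length 1076 genes were called, 813 of them in common. That correction moved the split from 52.7% to 63.7% higher in Cu, with 685 genes (4.37%) higher in Cu and 391 (2.5%) higher in Zn. In 395 genes (2.52%) the lowest Cu library exceeded the highest Zn library in each of the 4 lines, and in 301 (1.92%) the reverse held, and 585 of the called genes were among these. The total leant on single libraries. It rose to 2859 without the Zn library of *Baf250a* KD cells and fell to between 559 and 736 without *Baf180* KD Cu replicate 1 or 2, *Baf180* KD Zn replicate 2, *Brd9* KD Cu replicate 2, *Brd9* KD Zn replicate 2, or either scr Zn library. It was 129 without the *Baf180* KD line, 287 without *Brd9* KD, 543 without scr and 2479 without *Baf250a* KD. Called with the same sign in all 15 fits that left out 1 library were 483 genes, 278 higher in Cu and 205 higher in Zn.

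The zinc-responsive genes are described before the other groups, and the bases upstream of 3 of them are shown because MTF1 acts through elements there. The sequences are the 250 bases before the RefSeq start of each gene, from GRCm38.p6, 5′ to 3′ on the gene's strand, with every match to the core metal response element TGCACNC or TGCGCNC, on either strand, in capitals. *Mt2* lies at chr8:94172368-94172617 and *Mt1* at chr8:94178839-94179088, neighbours on the plus strand, and *Slc30a1* at chr1:191906531-191906780, also on the plus strand.
*Mt2*: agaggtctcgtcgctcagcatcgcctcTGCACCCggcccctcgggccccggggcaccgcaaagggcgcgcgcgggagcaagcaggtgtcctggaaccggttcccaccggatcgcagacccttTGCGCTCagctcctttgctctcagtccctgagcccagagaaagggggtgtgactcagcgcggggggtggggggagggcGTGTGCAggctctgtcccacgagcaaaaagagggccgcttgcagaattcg
*Mt1*: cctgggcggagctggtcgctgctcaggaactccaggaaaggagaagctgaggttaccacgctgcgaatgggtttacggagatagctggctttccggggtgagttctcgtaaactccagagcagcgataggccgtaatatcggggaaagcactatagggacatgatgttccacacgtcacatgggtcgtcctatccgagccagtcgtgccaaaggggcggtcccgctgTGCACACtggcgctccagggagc
*Slc30a1*: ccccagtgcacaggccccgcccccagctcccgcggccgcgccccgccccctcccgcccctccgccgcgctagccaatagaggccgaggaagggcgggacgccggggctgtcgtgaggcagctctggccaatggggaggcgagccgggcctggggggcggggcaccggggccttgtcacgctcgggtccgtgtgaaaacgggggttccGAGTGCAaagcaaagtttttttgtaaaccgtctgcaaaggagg
*Mt2* held 3 matches, beginning at positions -223, -128 and -50 from its start, *Mt1* held 1 at -23, and *Slc30a1* held 1 at -43. Of all 32851 promoters of the same length in the table, 21.4% held either form (10.4% TGCACNC and 12.5% TGCGCNC). The stretches before both annotated starts of *Slc39a10* held neither form. Outside the stretches shown, past the start, further matches began at +3 and +21 in *Mt1*, at +5 in *Mt2* and at +31 in *Slc30a1*. A match is a description of letters and was not tested as a binding site.

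Both metallothioneins and *Slc30a1* were higher in Zn than in Cu, and *Slc39a10* was lower. *Mt2* stood at 24.6, 108 and 131 CPM (lowest, median and highest of 8 Cu libraries) and at 189, 255 and 377 CPM in the 7 Zn libraries, against 18.1, 81.0 and 111 CPM in NT, so the Cu and Zn ranges did not overlap. It was 3.36-fold higher in Zn (log2FC -1.75 ± 0.205 (SE), adjusted p = 1.50e-04). Its neighbour *Mt1* stood at 60.6, 247 and 331 CPM in Cu and at 283, 500 and 728 CPM in Zn, ranges that overlapped across lines but in no line, and was 2.40-fold higher in Zn (log2FC -1.26 ± 0.160, adjusted p = 2.81e-04). *Slc30a1* stood at 12.6, 17.6 and 25.5 CPM in Cu and at 26.9, 31.0 and 49.8 CPM in Zn (log2FC -0.98 ± 0.0599, adjusted p = 2.30e-07), without overlap.

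*Slc39a10*, the importer, went the other way and had the smallest p of these genes. It stood at 32.3, 41.3 and 49.6 CPM in Cu and at 14.3, 18.2 and 20.4 CPM in Zn, with NT at 33.5, 38.6 and 47.3 CPM, so Zn libraries lay below all Cu and NT libraries. The log2FC was 1.17 ± 0.0617 (adjusted p = 5.93e-08) and hardly moved between lines, at 1.16 in scr, 1.08 in *Baf180* KD, 1.21 in *Baf250a* KD and 1.23 in *Brd9* KD cells.

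Set against untreated cells, these 4 genes were all called in Zn and none of them in Cu. Since Cu against NT and Zn against NT share the NT libraries, and the direct comparison shares its libraries with both, each value is given for its own contrast. Over the 4 lines Zn minus NT was 2.19 for *Mt2* (adjusted p = 1.16e-06), 1.61 for *Mt1* (1.16e-06), 1.06 for *Slc30a1* (4.88e-09) and -1.14 for *Slc39a10* (7.08e-10), on the log2 scale. Cu minus NT was 0.37 for *Mt2* (adjusted p = 0.315), 0.33 for *Mt1* (0.210), 0.09 for *Slc30a1* (0.526) and 0.05 for *Slc39a10* (0.705). In all, 9 genes were called between Zn and NT, 0.0574% of those tested, with 4 higher (0.0255%) and 5 lower (0.0319%) in Zn. Beside those 4 genes they were *Cnn1* (log2FC -0.63) and *Actc1* (-0.56), both of contractile cells, *Dmpk* (-0.28), the immediate early gene *Egr1* (0.52) and *A130014A01Rik* (-0.79), named after their values were seen because the count is small. Cu against NT called 647 genes, 4.13%, with 315 higher (2.01%) and 332 lower (2.12%) in Cu. With the correction for GC content and gene length these totals were 1303 for Cu and 23 for Zn against NT. The untreated scr libraries held 4.75% and 1.69% of their counts in RNAs linked to ribosomal RNA. In the Cu and Zn libraries this share was 0.107% to 1.11%, and its part in the contrasts with NT was not tested.

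**Figure D1:**
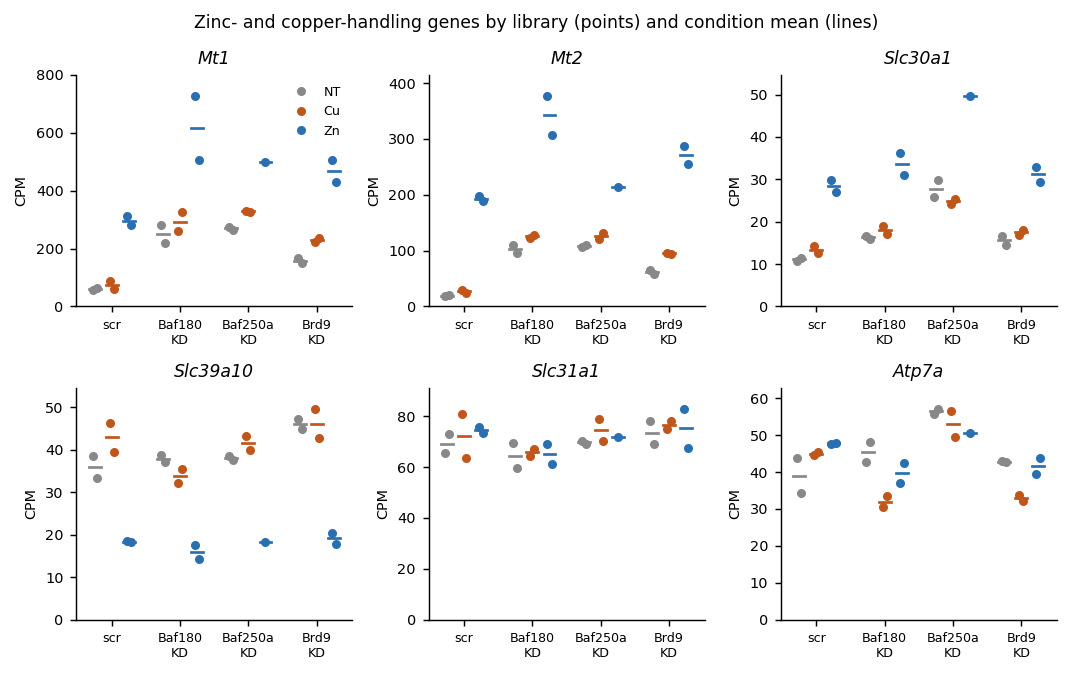
CPM (y axis, linear, from 0) of 6 zinc- and copper-handling genes in each library (points) and the mean of each condition (short lines), by cell line on the x axis, for untreated (grey), Cu (orange) and Zn (blue) cells, with 1 Zn library in *Baf250a* KD. *Mt1*, *Mt2* and *Slc30a1* are highest and *Slc39a10* lowest in Zn in every line, while Cu and Zn overlap for *Slc31a1* in every line.

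The size of the metallothionein difference depended on the line. *Mt2* averaged 26.7 CPM in Cu and 193 CPM in Zn in scr cells, and from there the log2FC shrank from -2.92 in scr to -1.46 in *Baf180* KD, -1.55 in *Brd9* KD and -0.75 in *Baf250a* KD cells, the last with 1 Zn library. The interaction of line and metal was called for *Mt2* (adjusted p = 1.95e-04) and for *Mt1* (0.0263), whose log2FC was -2.07, -1.09, -1.07 and -0.59 in the same lines, but not for *Slc30a1* (0.551) or *Slc39a10* (0.909). *Mt1* lost this call without any 1 of *Baf250a* KD Cu replicate 1 or 2, *Baf250a* KD Zn replicate 1 and scr Zn replicate 1 or 2, and without the *Baf250a* KD line, whereas *Mt2* kept it (adjusted p = 0.00110 to 0.00490). In the KD lines the metallothioneins were already higher without Zn: *Mt2* averaged 19.4 CPM in untreated scr cells and 103, 109 and 62.2 CPM in untreated *Baf180*, *Baf250a* and *Brd9* KD cells, a difference between lines that was not tested.

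The other Zn transporters differed little. Of the Slc39 importers all 10 tested had a positive log2FC and 5 were called higher in Cu, against 3.78% of all genes: *Slc39a10*, *Slc39a6* (0.24 ± 0.0440, adjusted p = 0.00493), *Slc39a13* (0.22 ± 0.0392, 0.00376), *Slc39a9* (0.15 ± 0.0399, 0.0390) and *Slc39a14* (0.14 ± 0.0391, 0.0433). The last 2 of those were called in 3 of the 15 fits that each left out 1 library, and the count of called importers fell to 3 in 12 of those 15. *Slc39a6*, which works beside ZIP10 at the plasma membrane, was also called higher in Cu than in NT (log2FC 0.21, adjusted p = 0.00733), with Zn minus NT at -0.05. Of 6 Slc30 exporters tested only *Slc30a1* was called. *Mtf1* itself stood at 37.7, 46.1 and 51.5 CPM in Cu and at 38.8, 42.7 and 47.7 CPM in Zn (log2FC 0.05 ± 0.0482, adjusted p = 0.569).

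Neither the Cu importer gene nor the exporter gene was called. *Slc31a1* stood at 63.7, 72.6 and 80.7 CPM in Cu and at 61.3, 71.8 and 82.9 CPM in Zn (log2FC -0.02 ± 0.0576, adjusted p = 0.868), a difference whose sign turned with several settings. *Atp7a* stood at 30.5, 39.2 and 56.6 CPM in Cu and at 37.1, 43.9 and 50.6 CPM in Zn (log2FC -0.22 ± 0.0686, adjusted p = 0.0692) and was called in 4 of 31 alternatives, 3 of which left out a *Baf250a* KD library or that line. Of 17 genes for Cu transporters and chaperones tested, 2 were called, beside 7.18% of all genes. *Sco2*, a chaperone for the Cu site of cytochrome oxidase, was higher in Cu (log2FC 0.33 ± 0.0825, adjusted p = 0.0253), and *Cox17*, which hands Cu to that chaperone, was lower (-0.37 ± 0.0719, 0.00641) and also below NT (-0.57, 3.17e-05). *Sco2* was called in 17 of 31 alternatives, and in 8 of the 15 fits that left out 1 library, and *Cox17* in 29 of 31. Of 12 Cu-dependent enzymes tested the lysyl oxidase gene *Loxl4* was called (0.23 ± 0.0562, 0.0219), and of 12 genes for protein lipoylation and pyruvate dehydrogenase, proteins to which Cu is known to bind when in excess, *Lipt2* was higher (0.52, 0.0490) and *Dld* lower in Cu (-0.31, 0.0453). After the correction for GC content neither of the last pair was called (adjusted p = 0.0622 and 0.344), and they were called in 9 and 12 of 31 alternatives.

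Targets of NRF2 formed the group with the largest share of called genes among the lists of 10 or more genes. Of 31 tested, 19 were higher in Cu, beside 3.78% of all genes, and 0 were lower, beside 3.4%. A positive log2FC was found in 30, and the median was 0.35 against -0.022 over all genes. In 15 of the 31 every Cu library lay above every Zn library in all 4 lines, beside 2.52% of all genes. Between 17 and 22 members were called whichever library was left out, 8 without the *Baf180* KD line and 11 without the *Brd9* KD line, and 22 were called after the GC correction. At an unadjusted p below 0.05 in edgeR 26 were higher in Cu and 0 in Zn, and DESeq2 called 22 and 0.

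*Srxn1*, sulfiredoxin, which reduces oxidised peroxiredoxins, stood at 198, 227 and 264 CPM in Cu and at 117, 141 and 178 CPM in Zn, without overlap (log2FC 0.68 ± 0.0558, adjusted p = 8.73e-06). *Gsta4*, a glutathione transferase for lipid peroxidation products, stood at 232, 366 and 603 CPM in Cu and at 147, 260 and 340 CPM in Zn (0.65 ± 0.0702, 6.52e-05). Their log2FC lay between 0.46 and 0.79 in every line. The members below are named after their values were seen, to show the roles in the list. *Nqo1*, a quinone reductase, was higher in Cu by 0.67 ± 0.0793 and *Txnrd1*, cytosolic thioredoxin reductase, by 0.43 ± 0.0504. *Gclc*, the catalytic subunit for glutathione synthesis, was higher by 0.41 ± 0.0572, whereas its partner *Gclm* missed the threshold (0.20 ± 0.0712, adjusted p = 0.101), as did the cystine importer *Slc7a11* (0.20 ± 0.101, 0.241). NADPH-making enzymes of the pentose phosphate pathway were among the called members, with *Pgd* at 0.47 ± 0.0590 and *G6pdx* at 0.37 ± 0.0759, as were the conjugate exporters *Abcc1* (0.36 ± 0.0440) and *Abcc4* (0.35 ± 0.0549). *Gsta1* (1.11) and *Gsta2* (0.50) were called at low levels and are close copies, so reads may be split between them. *Nfe2l2*, which encodes NRF2, and *Keap1* were not called (-0.15 and 0.04).

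Against untreated cells, 23 of the 31 were higher in Cu, beside 2.01% of all genes, and 0 were called in either direction in Zn, beside 0.0574%. List medians were 0.44 for Cu minus NT and 0.09 for Zn minus NT (28 and 9 members at an unadjusted p below 0.05 in edgeR). *Gsta4* was 1.10 above NT in Cu (adjusted p = 3.04e-08) and 0.41 above in Zn (0.0666), and *Srxn1* 0.81 (8.89e-07) and 0.09. The median difference between metals was 0.22 in scr, 0.40 in *Baf180* KD, 0.43 in *Baf250a* KD and 0.33 in *Brd9* KD cells, and no member was called in the interaction, although *Hmox1* was close (adjusted p = 0.0516) and was called after the GC correction (0.0318). Of the 19 called members 15 had a RefSeq promoter in the table, 21 promoters in all, and 4 of the 21 (of *Txnrd1*, *Abcc4* and *G6pdx*) held the antioxidant response element core TGACNNNGC, on either strand within the 250 bases before the start, beside 10.2% of all promoters.

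Ferritin and heme genes overlapped with that list. Of 24 genes of iron and heme handling, 4 were higher in Cu and 0 higher in Zn, beside 3.78% and 3.4% of all genes, with a list median of 0.03. *Hmox1*, heme oxygenase, which is also an NRF2 target, stood at 69.6, 124 and 310 CPM in Cu and at 49.7, 87.8 and 137 CPM in Zn (0.57 ± 0.104, adjusted p = 0.00447). *Ftl1* (0.30 ± 0.0615, 0.00911) and *Fth1* (0.30 ± 0.0631, 0.0107), the ferritin chains, stand on both lists, and *Alas1* (0.25 ± 0.0520, 0.0111) makes the first heme precursor. Ferritin genes have processed copies in the genome, so their counts are less certain.

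Among enzymes of glycolysis and other HIF1 targets, 28 were tested, of which 10 were higher in Cu and 1 in Zn, beside 3.78% and 3.4% of all genes. The median was 0.23, and 11 and 1 were called after the GC correction. *Pgam1* stood at 81.9, 92.7 and 108 CPM in Cu and at 57.9, 62.0 and 80.1 CPM in Zn, without overlap (0.48 ± 0.0683, adjusted p = 7.85e-04). *Eno1* stood at 831, 942 and 1142 CPM in Cu and at 672, 722 and 849 CPM in Zn (0.36 ± 0.0535, 9.59e-04). The member higher in Zn was *Hif1a* itself (-0.29 ± 0.0775, 0.0361, and 0.307 after the GC correction), named for that reason after its value was seen. The list differed between lines, with medians of 0.39 in scr, 0.28 in *Baf180* KD, 0.19 in *Brd9* KD and -0.13 in *Baf250a* KD cells, and 9 members were called in the interaction, beside 4.81% of all genes. The count higher in Cu rose to 18 without the Zn library of *Baf250a* KD cells and fell to between 4 and 6 without *Baf180* KD Cu replicate 1, *Baf180* KD Zn replicate 2, *Brd9* KD Cu replicate 2, *Brd9* KD Zn replicate 2, scr Cu replicate 1 or either scr Zn library. It was 1 without the *Baf180* KD line, 2 without scr, 4 without *Brd9* KD and 17 without *Baf250a* KD. Against NT, 4 members were higher in Cu, beside 2.01% of all genes, and 0 were called in Zn.

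Of 20 p53 targets, 7 were higher in Cu and 1 in Zn, beside 3.78% and 3.4% of all genes, with a median of 0.16. *Bax*, which permeabilises mitochondria in apoptosis, stood at 103, 113 and 130 CPM in Cu and at 75.3, 87.6 and 100 CPM in Zn, without overlap (0.34 ± 0.0571, adjusted p = 0.00262), and *Aen*, an exonuclease of apoptosis, was higher in Cu by 0.29 ± 0.0527 (0.00461). The others were *Plk2*, *Tnfrsf10b*, *Cdkn1a*, *Phlda3* and *Zmat3*, at 0.20 to 0.34, and the member higher in Zn was *Sesn1* (-0.30). The count stayed between 7 and 10 whichever library was left out, but was 0 without the *Baf180* KD line and 2 without scr. Against NT, 1 member was called higher and 1 lower in Cu, beside 2.01% and 2.12% of all genes, and 0 were called in Zn. At an unadjusted p below 0.05 in edgeR 8 of the 20 differed from NT in Cu and 4 in Zn, so a missing call here does not mean no difference from untreated cells.

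Other stress lists are to be read against the 7.18% of all genes called. Of 23 ATF4 targets 4 were higher in Cu, the largest 2 being *Ppp1r15a* (0.37), which reverses the translational arrest, and *Stc2* (0.25), beside *Sesn2* (0.22 ± 0.0466, adjusted p = 0.0110) and *Slc7a1* (0.18), and 1 was higher in Zn, *Nupr1* (-0.47 ± 0.0642, 5.16e-04), a stress-induced chromatin protein that was also lower in Cu than in NT (-0.46, 0.00890). Of 22 heat shock genes only the small chaperone gene *Cryab* was called (0.37 ± 0.0858, 0.0173), and the inducible Hsp70 genes *Hspa1a* and *Hspa1b* were not. Of 18 chaperones of the endoplasmic reticulum 2 were higher in Zn, *Hsp90b1* (-0.36 ± 0.0777, 0.0143) and *Dnajc3* (-0.21 ± 0.0531, 0.0300), the latter not called after the GC correction (0.448) and called in 11 of 31 alternatives. Of 26 immediate early genes 3 were higher in Cu and 2 in Zn: *Klf2* (0.51 ± 0.0748, 9.67e-04), *Fosl1* (0.45 ± 0.0620, 5.27e-04) and *Myc* (0.32) against *Egr3* (-0.73) and *Egr2* (-0.45). List medians differed between lines. In scr, *Baf180*, *Baf250a* (1 Zn library) and *Brd9* KD cells the ATF4 median was 0.21, 0.13, -0.27 and 0.14. In that order heat shock genes had 0.09, -0.04, -0.19 and 0.05, and endoplasmic reticulum chaperones 0.07, -0.09, -0.37 and -0.04. Immediate early genes had 0.11, 0.12, -0.09 and -0.15, and all genes -0.02, -0.01, 0.02 and -0.01.

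**Figure D2:**
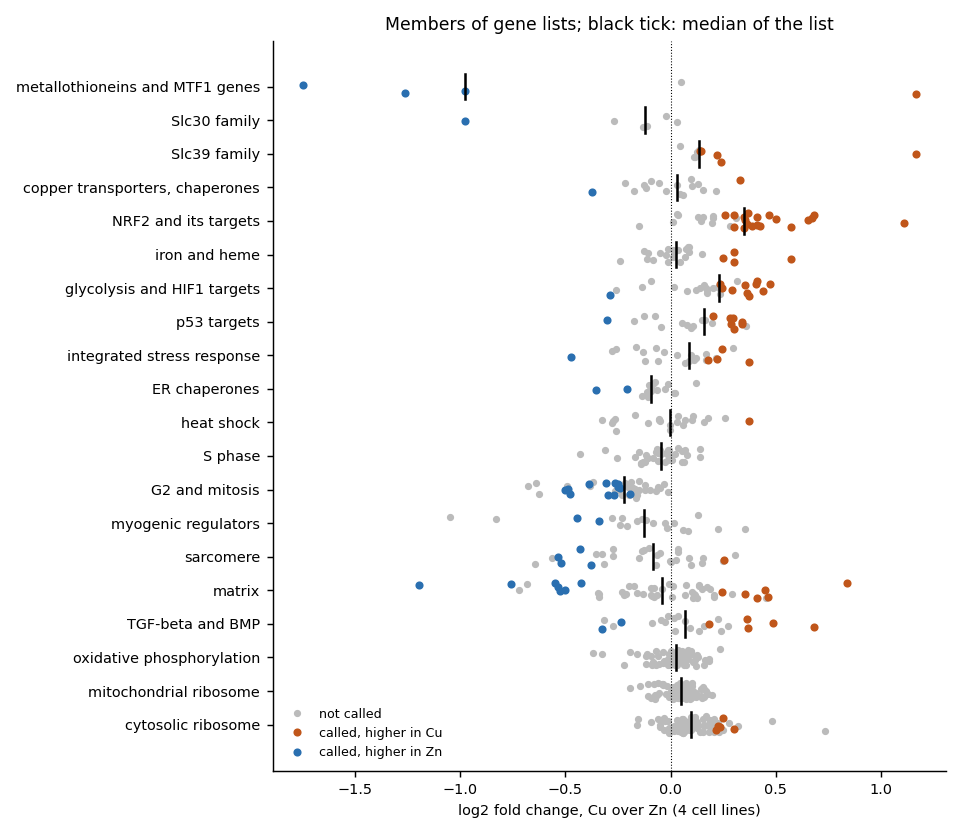
Log2 fold change of Cu over Zn (x axis) for each tested member of 20 gene lists (rows), coloured where called, with the median of the list as a black tick. The NRF2 row lies almost wholly to the right of 0, the row of G2 and mitosis wholly to the left, and the metallothionein and MTF1 row holds the largest differences in both directions.

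Of the genes of G2 phase and mitosis, 40 were tested, of which 12 were higher in Zn and 0 higher in Cu, beside 3.4% and 3.78% of all genes. None had a positive log2FC, and the median was -0.22, while 11 were higher in Zn after the GC correction with a median of -0.18. *Top2a*, the topoisomerase that untangles replicated chromosomes, stood at 303, 380 and 479 CPM in Cu and at 436, 510 and 550 CPM in Zn, ranges that overlapped across lines but in no line (-0.39 ± 0.0531, adjusted p = 5.62e-04). *Ndc80*, of the outer kinetochore, was also higher in Zn (-0.49 ± 0.0983, 0.00907). Against NT none of the 40 was called with either metal, at list medians of -0.03 in Cu and 0.18 in Zn, and 2 and 14 had an unadjusted p below 0.05 in edgeR. Within lines the median was -0.38 in scr (-0.25 after the GC correction), with 21 members higher in Zn beside 3.64% of all genes, and -0.36 in *Baf250a* KD, with 16 beside 6.02%. It was -0.13 in *Baf180* KD and -0.03 in *Brd9* KD, where 0 members were called and 0.357% and 0.364% of all genes were. In the interaction 7 members were called, beside 4.81% of all genes. The count higher in Zn fell to 6 or 7 without *Baf180* KD Cu replicate 1, *Baf250a* KD Cu replicate 2, *Brd9* KD Cu replicate 2, scr Cu replicate 1 or either scr Zn library. It was 2 without the scr line, 1 without *Baf180* KD, 6 without *Brd9* KD and 14 without *Baf250a* KD. Of 36 genes of S phase and DNA replication 0 were called across lines (6 at an unadjusted p below 0.05 in edgeR, and 1 by DESeq2), with 14 called in the interaction and 18 higher in Zn within *Baf250a* KD cells, where Zn has 1 library. In bulk RNA, fewer cells in a phase and less RNA per cell cannot be told apart.

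Muscle genes gave a mixed picture, to be read against the 3.78% of all genes higher in Cu and the 3.4% higher in Zn. Of 20 myogenic regulators 2 were higher in Zn, among them *Hey1*, a Notch target, at 2.79, 5.97 and 17.7 CPM in Cu and 3.82, 8.91 and 20.9 CPM in Zn (-0.45 ± 0.0900, adjusted p = 0.00903), which was also lower in Cu than in NT (-0.59, 0.00120). Of 30 sarcomere genes 4 were higher in Zn, with *Tnnt1* (-0.54 ± 0.0837, 0.00151) and *Atp2a1* (-0.52 ± 0.0835, 0.00189) in front of *Tnnt3* and *Tnnt2*, and 1 was higher in Cu, *Acta1* (0.25). Against NT, 8 sarcomere genes were lower in Cu and 1 in Zn, beside 2.12% and 0.0319% of all genes.

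The matrix list split, and its counts are to be read against the 3.78% of all genes higher in Cu and the 3.4% higher in Zn. Of 51 collagens and other matrix genes 6 were higher in Cu and 7 in Zn, with a median of -0.04. The paired basement membrane chains *Col4a1* (0.46 ± 0.0701) and *Col4a2* (0.41 ± 0.0565, adjusted p = 5.62e-04) were higher in Cu, *Col4a2* at 466, 520 and 639 CPM against 285, 379 and 551 CPM in Zn. Of the microfibrillar collagen VI, *Col6a1* (-0.55 ± 0.0771, 6.59e-04) and *Col6a2* (-0.42 ± 0.0828) were higher in Zn, while the chain gene *Col6a3* was tested and not called. *Col6a2* fell as low as 0.262 CPM in Cu, and its log2FC was 0.18 in scr and negative in the other lines. Of 23 genes of TGF-beta and BMP signalling 5 were higher in Cu and 2 in Zn. *Fst*, which encodes the activin and myostatin antagonist follistatin, was higher in Cu by 0.68 ± 0.0809 (1.55e-04), with Cu minus NT at 0.28 (0.0517) and Zn minus NT at -0.43 (0.0666), neither called.

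Several lists held no gene called across lines: histones (56 tested), oxidative phosphorylation (75), the mitochondrial ribosome (74), interferon-stimulated genes (21), transcripts of the mitochondrial genome (10), RNAs linked to ribosomal RNA (5) and other small structural RNAs (12). At an unadjusted p below 0.05 in edgeR they held 5, 10, 8, 4, 0, 0 and 0 genes in that order, and DESeq2 called 0, 2, 3, 3, 0, 0 and 0. The interaction called 9, 12, 9, 0, 3, 0 and 0 of them, beside 4.81% of all genes. In scr, *Baf180*, *Baf250a* (1 Zn library) and *Brd9* KD cells the median log2FC of oxidative phosphorylation was 0.15, -0.005, -0.19 and 0.07. That of the mitochondrial genome was -0.81, 0.19, 1.19 and -0.05 (0.01, 0.24, 0.60 and 0.28 after the GC correction). Of 85 cytosolic ribosomal proteins 5 were higher in Cu, beside 3.78% of all genes (9 after the GC correction, beside 4.37%, 14 by DESeq2, and 22 at an unadjusted p below 0.05 in edgeR). Among them were *Rplp0* (0.25 ± 0.0558, adjusted p = 0.0163) and *Rpsa* (0.23 ± 0.0530, 0.0187), at a list median of 0.10, and many of these genes have processed copies. The interaction called 14 of the 85, with medians of 0.20 in scr, 0.09 in *Baf180* KD, -0.10 in *Baf250a* KD and 0.15 in *Brd9* KD cells. Of 25 sterol synthesis genes *Hmgcs1* was higher in Zn (-0.29 ± 0.0581, 0.00905), but not after the GC correction (0.242). Of 25 SWI/SNF subunits *Phf10* (-0.17 ± 0.0409, 0.0245) and *Smarca2* (-0.23 ± 0.0676, 0.0475) were higher in Zn, beside 3.4% of all genes. *Phf10* was not called after the GC correction (0.886), and *Smarca2* was called in 4 of 31 alternatives. The 3 depleted subunits did not differ between metals beyond the threshold (*Pbrm1* -0.29, adjusted p = 0.172, *Arid1a* -0.02, 0.896, and *Brd9* -0.20, 0.128).

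Among called genes with a mean of at least 2 CPM and the same sign in every line, those with the largest log2FC higher in Cu after *Slc39a10* were *Mmp10*, a matrix metalloproteinase, *Mfap5*, a microfibril protein, *Depp1*, a target of FOXO factors, *Gpr137b*, a lysosomal membrane protein, *Trim54*, a muscle RING finger protein, *Ptgir*, the prostacyclin receptor, *Lingo2*, *Sprr1a* and the ligand gene *Wnt4*. *Gpr137b* stood at 48.2, 70.1 and 87.5 CPM in Cu and at 30.1, 33.4 and 51.7 CPM in Zn (0.77 ± 0.0482, adjusted p = 2.30e-07), with a similar difference in each line (0.71 to 0.93), although a near-identical pseudogene, *Gpr137b-ps* (0.48), may share its reads. *Mmp10* varied far more between lines than between metals, from 0.244 to 66.0 CPM in Cu and from 0.0701 to 31.2 CPM in Zn (0.90 ± 0.0968, 6.52e-05). The others had log2FC of 0.71 to 0.84, and *Trim54* and *Lingo2* lost their call in 17 and 9 of 31 alternatives. Against NT, *Mmp10* (0.84), *Depp1* (0.74), *Gpr137b* (0.86), *Ptgir* (0.84) and *Wnt4* (0.65) were called higher in Cu, with Zn minus NT between -0.14 and 0.08, while *Mfap5*, *Trim54*, *Lingo2* and *Sprr1a* were called against NT with neither metal.

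On the Zn side, beside the metallothioneins and *Slc30a1*, large differences were those of *Heyl*, a Notch target, *Tmc3*, *Stra6*, the receptor for retinol-binding protein, the ectonucleotidases *Enpp3* and *Enpp1*, and *Medag*. *Heyl* stood at 0.918, 2.63 and 5.67 CPM in Cu and at 3.07, 4.44 and 14.7 CPM in Zn (-1.29 ± 0.124, adjusted p = 3.12e-05), with log2FC of -1.09 to -1.48 over the lines. *Enpp1*, which makes pyrophosphate outside the cell, stood at 1.33, 16.1 and 55.4 CPM in Cu and at 2.10, 14.4 and 94.4 CPM in Zn (-0.76 ± 0.0947, 2.41e-04), its lines spanning more than the metals. These 6 were all lower in Cu than in NT, by log2FC of -0.77 to -1.10, and none was called between Zn and NT, where values ran from -0.10 to 0.20. In these contrasts with NT the 6 genes were called in Cu alone, whereas the metallothioneins and *Slc30a1* were called in Zn alone.

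**Figure D3:**
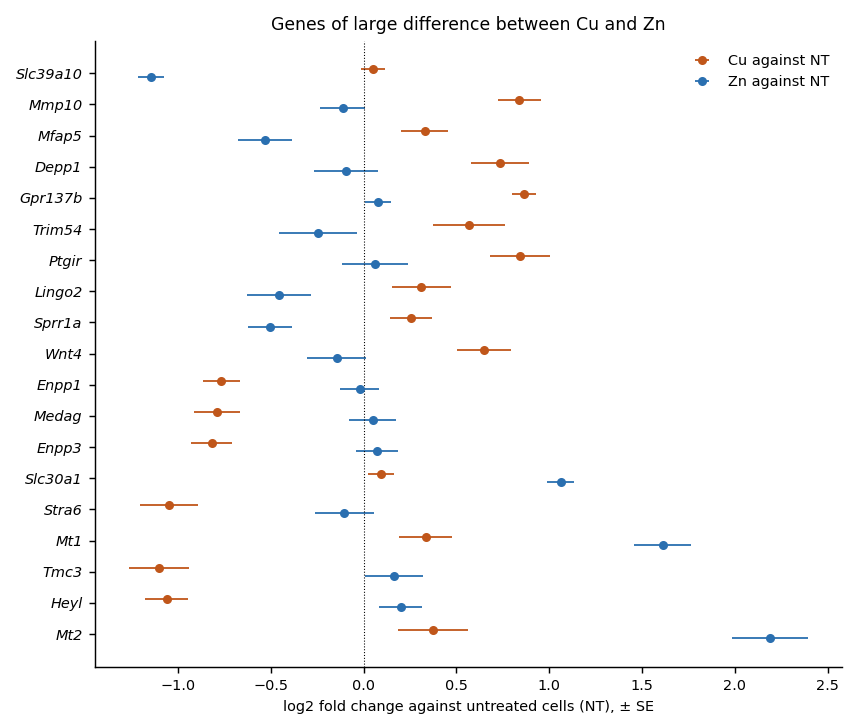
Log2 fold change over untreated cells (x axis) with its SE (bars) in Cu (orange) and in Zn (blue), from the fit over 4 cell lines, for called genes of large log2FC between Cu and Zn that are named in the text (rows). Both contrasts share the untreated libraries. *Mt1*, *Mt2*, *Slc30a1* and *Slc39a10* lie far from 0 in Zn and near it in Cu, while for *Mmp10* and *Gpr137b* (higher in Cu) and *Tmc3* and *Heyl* (lower in Cu) Cu lies far from 0 and Zn near it.

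Within single lines, in contrasts that rest on 2 against 2 libraries (2 against 1 in *Baf250a* KD cells, whose lone Zn library was taken to vary like the others), the counts differed widely. In scr cells 1248 genes were called (7.97%), 677 higher in Cu (4.32%) and 571 in Zn (3.64%). *Baf250a* KD cells gave 1337 (8.53%), with 394 higher in Cu (2.51%) and 943 in Zn (6.02%). *Baf180* KD cells gave 144 (0.919%), 88 higher in Cu (0.562%) and 56 in Zn (0.357%), and *Brd9* KD cells 89 (0.568%), 32 higher in Cu (0.204%) and 57 in Zn (0.364%). These counts do not test a difference between lines. The test of that difference, an interaction of line and metal with 3 degrees of freedom, called 753 genes (4.81%).

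**Figure D4:**
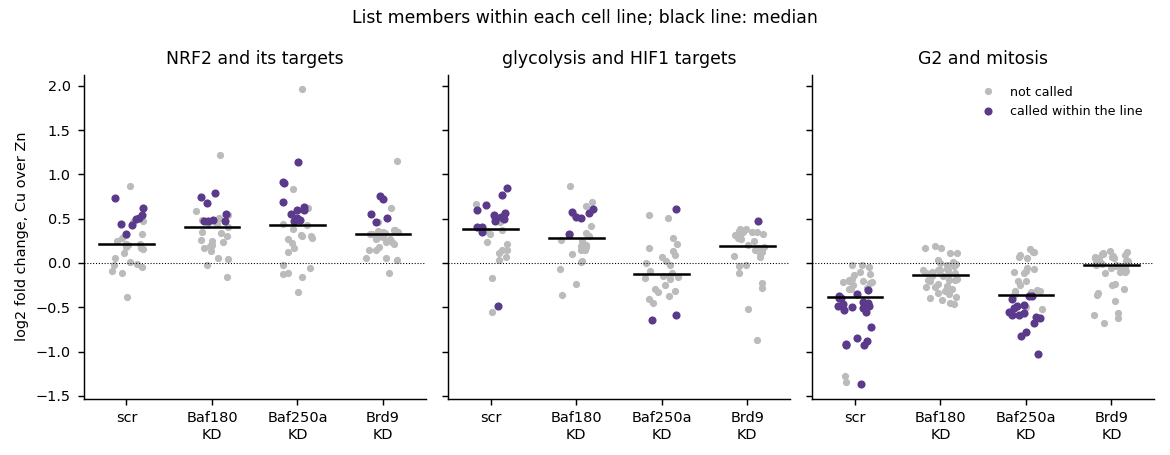
Log2 fold change of Cu over Zn (y axis) of each tested member of 3 gene lists (panels) within each cell line (x axis), purple where called within the line, with the median as a black line. The NRF2 medians are above 0 in all 4 lines (0.22 to 0.43), those of G2 and mitosis are lowest in scr and *Baf250a* KD cells, and that of glycolysis falls below 0 in *Baf250a* KD cells, where Zn has 1 library.

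The interaction count rested on few libraries. With *Baf250a* KD Cu replicate 1 or 2, *Baf250a* KD Zn replicate 1, scr Zn replicate 1 or scr Zn replicate 2 left out, 1 gene was called, which was *Mt2* each time (adjusted p = 0.00110 to 0.00490), and the same held without the *Baf250a* KD line (0.00449). It was 285 or 311 without *Brd9* KD Cu replicate 1 or 2, 499 without *Brd9* KD Zn replicate 2 and 1815 without scr Cu replicate 2. Behind *Mt2*, the smallest interaction p belonged to *Ddrgk1*, *Mrps6*, *Chaf1a* and *Cdkn2c* (adjusted p = 0.0143 each). *Ddrgk1*, of protein ufmylation, had a log2FC of 0.58 in scr, -0.13 in *Baf180* KD, -0.88 in *Baf250a* KD and 0.19 in *Brd9* KD cells. In the same order *Mrps6*, a mitochondrial ribosomal protein, had 0.54, -0.07, -0.77 and 0.17, *Chaf1a*, a histone chaperone of replication, 0.36, -0.15, -0.81 and 0.22, and the cell cycle inhibitor gene *Cdkn2c* -0.09, -0.21, -1.10 and 0.05. All 4 had their lowest value in *Baf250a* KD cells, and they were called in 22 or 23 of 29 alternatives.

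The GC dependence of the libraries moved with the metal in some lines. The slope of a library's log2 CPM on GC content, relative to the mean over libraries, was -0.278 and -0.332 per 10 percentage points in the scr Zn libraries and 0.124 and -0.113 in the scr Cu libraries. In *Baf180* KD cells it was 0.312 and 0.166 in Cu and 0.222 and 0.0557 in Zn, in *Brd9* KD cells -0.0240 and 0.118 in Cu and -0.0107 and -0.164 in Zn, and in *Baf250a* KD cells -0.128 and -0.0283 in Cu and 0.0806 in Zn, where the order was the reverse. Averaged within lines the slope was 0.0965 higher in Cu (exact two-sided permutation test within lines, 648 arrangements, p = 0.201, smallest possible 0.00154). Genes are not independent replicates, and over 11463 of them the Spearman correlation of log2FC with GC content was 0.458, and 0.0117 after the correction. *Mt1*, *Mt2*, *Slc30a1*, *Slc39a10*, *Srxn1*, *Gsta4*, *Top2a* and *Ndc80* were called with and without it, with *Top2a* going from -0.39 to -0.26.

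**Figure D5:**
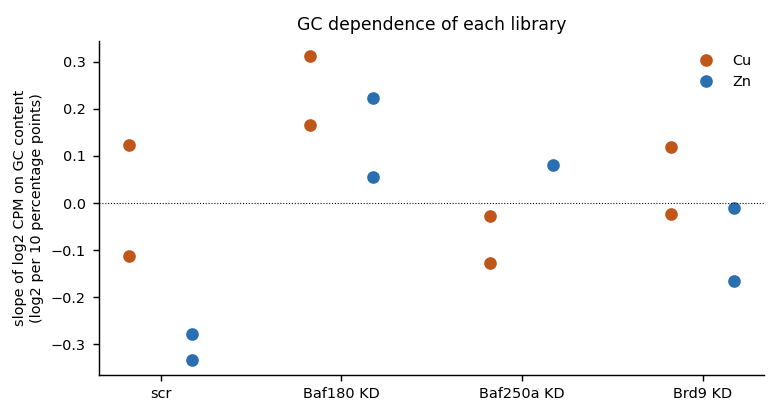
Slope of log2 CPM on GC content for each library (y axis, log2 per 10 percentage points), by cell line (x axis), in Cu (orange) and Zn (blue). The scr Zn libraries lie lowest, at -0.278 and -0.332, and in *Baf250a* KD cells the Zn library lies above both Cu libraries.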

How the data were processed

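RNA was depleted of ribosomal RNA with RNase H and made into strand-specific paired-end libraries. The deposited table holds counts per gene, made by the authors by aligning reads to mm10 with STAR, keeping unique alignments, and counting fragments on the sense strand with featureCounts (versions are not given in the sources used here), without normalization. Files of the authors' own comparisons, which hold log2 fold changes, standard errors and p-values, were not used. Groups came from the sample titles. The labels call the cells primary mouse myoblasts and the methods call them C2C12. A treatment field that contradicted some titles was not used.

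From the counts, libraries were scaled by TMM, genes were kept by filterByExpr with the design of cell line plus metal (15668 genes), and Cu was tested against Zn over 8 and 7 libraries with edgeR's quasi-likelihood F-test (edgeR 4.0.16, limma 3.58.1, R 4.3.3) and Benjamini-Hochberg adjustment at 0.05. Line by metal interaction and within-line contrasts used a mean per condition, and contrasts with NT used 23 libraries. CPM values were scaled over those 23, except for the cell type markers, whose CPM was taken over the library total without TMM. A GC and length correction fitted a spline of 5 degrees of freedom per library on GENCODE M21 gene models (53292 symbols matched directly and 404 by synonym, of 55291). Totals were 16799494 to 44746359 counts in Cu and 12719173 to 75179394 in Zn. Each SE was taken from the F statistic of that test, which includes the spread between libraries. The limit for a gene without counts covers counting error only. In simulated data on 15668 genes for this comparison, of which 200 were changed, the test recovered 98% of genes with a log2FC of 1 and 75% of those with 0.5, and called 5 unchanged genes. The simulated counts held no GC dependence of libraries and no interaction of line and metal. They therefore cannot show how many calls in the real data come from either.

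Named genes are the 10 largest log2FC in each direction among called genes with mean CPM of at least 2 and the same sign in the 4 lines, called members of the lists of metallothionein, Zn and Cu handling genes with 7 fixed genes, the 2 called members of smallest p of each other list, the 5 smallest interaction p and the 3 shRNA targets, and 3 genes picked by this rule are not reported here. Members and lists were chosen with earlier results of these data known. Alternatives covered size factors (RLE), filters, DESeq2 1.42.0, thinning, a minimum fold of 1.5, the fit with NT, the library of few counts, GC and length, the replicate block, and leaving out each library or line.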

Additional observations from a re-analysis of the deposited data

Results flagged for a closer look

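For each named gene the Cu and Zn libraries were searched, after the mean of each line was taken out, for a library whose gap to its nearest neighbour was a large share of the whole range, a rule that by chance picks about 1 in 20 groups. Among the Cu libraries the lowest was scr Cu replicate 2 for *Depp1* (gap 0.571 of the range) and *Baf250a* KD Cu replicate 2 for *Enpp3* (0.868), and the highest was *Brd9* KD Cu replicate 1 for *Hmgcs1* (0.537). Among the Zn libraries *Baf180* KD Zn replicate 1 was lowest for *Slc39a9* (0.643) and *Brd9* KD Zn replicate 1 highest for *Cox17* (0.576). The lone Zn library of *Baf250a* KD cells stood apart for 4 genes, as the lowest for *Trim54* (0.593), *Stra6* (0.596) and *Lipt2* (0.620) and the highest for *Cdkn2c* (0.759).

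The difference between Cu and Zn itself differed between lines, by the interaction in edgeR's quasi-likelihood test, for 7 named genes. The adjusted p was 1.95e-04 for *Mt2*, 0.0263 for *Mt1* and 0.0225 for *Wnt4*, whose log2FC was 0.17 in scr, 1.18 in *Baf180* KD, 1.20 in *Baf250a* KD and 0.47 in *Brd9* KD cells. It was 0.0143 for each of *Ddrgk1*, *Mrps6*, *Chaf1a* and *Cdkn2c*, whose values by line are given above.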

How the results depend on the processing

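Of the 62 named genes tested between the metals 59 were called. The alternative with a minimum fold of 1.5 called 4 genes in all, *Slc39a10*, *Slc30a1*, *Heyl* and *Mt2* (1 higher in Cu, 3 in Zn), with 0 NRF2 targets and 0 genes of G2 and mitosis. No other gene could therefore be called in every alternative, and these 4 were. In every alternative but the minimum fold, 107 genes kept their call and sign, 60 higher in Cu and 47 in Zn. They held 23 named genes, 8 NRF2 targets and 0 genes of G2 and mitosis. Without an abundance filter (at least 1 count) 1729 genes were called, 964 of them higher in Zn, with 19 of G2 and mitosis and 2544 in the interaction. With the library of few counts 352 were higher in Zn and 298 called in the interaction, and in the fit of 23 libraries 288 were higher in Zn, 5 of them of G2 and mitosis. DESeq2 called 1702 (893 higher in Cu, 809 in Zn), 19 of G2 and mitosis and 1567 in the interaction. Without the scr line there were 543 (300 and 243), 2 of G2 and mitosis and 59 in the interaction. Without *Baf180* KD there were 129 (68 and 61), 8 NRF2 targets, 1 of G2 and mitosis and 1524 in the interaction. Without *Baf250a* KD there were 2479 (1165 and 1314) and 1 in the interaction, and without *Brd9* KD 287 (161 and 126), 11 NRF2 targets and 6 of G2 and mitosis. The GC correction gave 1303 genes between Cu and NT, 23 between Zn and NT and 578 within scr. Leaving out 1 library at a time gave 559 to 2859 called genes, 308 to 1318 higher in Cu, 251 to 1541 higher in Zn, 17 to 22 NRF2 targets, 6 to 15 of G2 and mitosis and 1 to 1815 in the interaction. The cause was not tested, beyond the fewer samples or genes that an alternative holds by construction.

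The log2FC of *Slc31a1*, not called and -0.02 as reported, became positive with no abundance filter (0.00233), in the fit of 23 libraries (0.00717), with the GC correction (0.0865), with the replicate block and GC correction (0.0991), after thinning (0.00173), without *Brd9* KD Zn replicate 1 (0.00262), without scr Cu replicate 2 (0.0211) and without scr (0.0103), and over fits that left out 1 library it ran from -0.0435 to 0.0211. RLE factors, a mean of at least 1 CPM, filterByExpr by condition (1081 called, chosen after seeing the data) and thinning (930) left the total within 1.5 times of 1125.

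The replicate numbers were checked for pairing by the correlation of same-numbered Cu and Zn libraries, which came to 0.314 for scr, 0.178 for *Baf180* KD and -0.0598 for *Brd9* KD. So few values cannot decide whether the numbers mark pairs, and the main fit did not take them as pairs. Whether same-numbered libraries shared a batch was not tested. With the replicate block 363 genes were called (208 higher in Cu, 155 in Zn), 2 of G2 and mitosis, 4 glycolysis genes higher in Cu (10 as reported), and 211 in the interaction. With block and GC correction together there were 587 (376 and 211), 3 and 410.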
